A study of Mus musculus with 6 samples.

Results

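Collagen chains were followed across 6 RNA sequencing libraries of mouse 3T3 cells, an immortalised fibroblast line from mouse embryos. The members were all protein-coding genes whose symbol is Col, a number, the letter a and a number, 44 of the 35275 genes in the deposited table. They were read by structural class, with 11 fibrillar chains, 6 of basement membranes, 9 of the FACIT class (fibril-associated collagens with interrupted triple helices), 8 beaded, 3 network, 4 transmembrane, 2 multiplexin chains and 1 anchoring fibril chain. The multiplexins (collagens XV and XVIII) and collagen VII stood outside the 6 classes of the rule and were kept apart. In 3 libraries the cells expressed a construct for overexpression of NNMT, nicotinamide N-methyltransferase, and in 3 a control construct. Cells of both groups had been cultured for 48 h in DMEM made without methionine and brought to 10 µM methionine, with 10% dialyzed FBS. The labels call the libraries biological replicates but do not give the promoter of the construct, how it was delivered, or whether a group came from more than 1 transduction. The construct and the starting population of each group therefore cannot be told apart, and p-values measure the spread between the libraries only.

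Collagen chains wind around each other into a triple helix, which needs a glycine in each Gly-X-Y repeat. Fibrillar chains form the fibres that give tissue its tensile strength. FACIT chains sit on the surface of these fibres, basement membrane and network chains form sheets, and beaded chains form microfibrils near the cell surface. Fibroblasts are a main source of the fibrillar and beaded classes. NNMT transfers a methyl group, which derives from methionine, to nicotinamide.

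Levels are in FPKM, a unit inferred from the values, which scales reads to the length of the gene and to the counted reads of the library. Library totals implied by the values lay between 31667152 and 40036226 counted reads. Of the NNMT columns 1 carries no replicate number and is called the unnumbered NNMT library. Values of single libraries are given for control 1, 2 and 3, then for NNMT unnumbered, 2 and 3. Elsewhere they are means ± SD with n = 3. Log2 fold changes (NNMT minus control) are on log2(FPKM + 1), a scale that makes the change of low genes look smaller. The Nnmt gene was at 6.45 ± 1.18 FPKM in control and 16.3 ± 1.70 in NNMT cells (log2 fold change 1.23, SE 0.108, limma adjusted p = 4.75e-06). The test covered 10882 genes whose 6 libraries averaged 1 FPKM or more, of which 65.6% passed an adjusted p of 0.05 in either direction, so that a call by itself sets no gene apart. Of 338 tested genes on X, 305 fell and 8 rose, and all 7 on Y rose. Of the fibroblast markers, 10 of 12 were tested, 2 rose and 6 fell, with Vim (1515 ± 6.04 and 1044 ± 40.3 FPKM), S100a4 and Fn1 the highest and Tcf21 at 0. Of 9 epithelial, 8 endothelial and 7 adipocyte markers no gene reached a mean of 1 FPKM, and of 8 immune markers 1 did (Cd68, 1.80 ± 0.284 FPKM in control cells). In bulk RNA, more cells of a kind and more RNA per cell cannot be told apart.

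All but 1 of the tested collagen chains rose in NNMT cells. Of the 44 chains, 22 reached a mean of 1 FPKM and were tested, 21 of them rose and 1, Col16a1, fell. Among all genes tested 35.0% rose and 30.6% fell. The median log2 fold change of the 22 chains was 0.65, beside 0.028 over all genes. All 3 NNMT libraries lay above all 3 control libraries for those 21 chains, as they did for 37.2% of all genes tested, and all lay below for Col16a1. Groups stood apart in one direction or the other for 69.9% of all genes. Of the 22, Col11a2, Col18a1 and Col20a1 had a control mean under 1 FPKM and were tested only because of their level in NNMT cells. Just inside the limit stood Col18a1 with a mean of 1.16 FPKM over the 6 libraries and Col20a1 with 1.19, and just outside stood Col17a1 with 0.747 and Col9a3 with 0.610. Only 5 chains changed by at least 1 on the log2 scale, all upward (Col5a3, Col12a1, Col11a2, Col7a1 and Col3a1), where 2.36% of all genes tested rose that far.

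**Figure D1:**
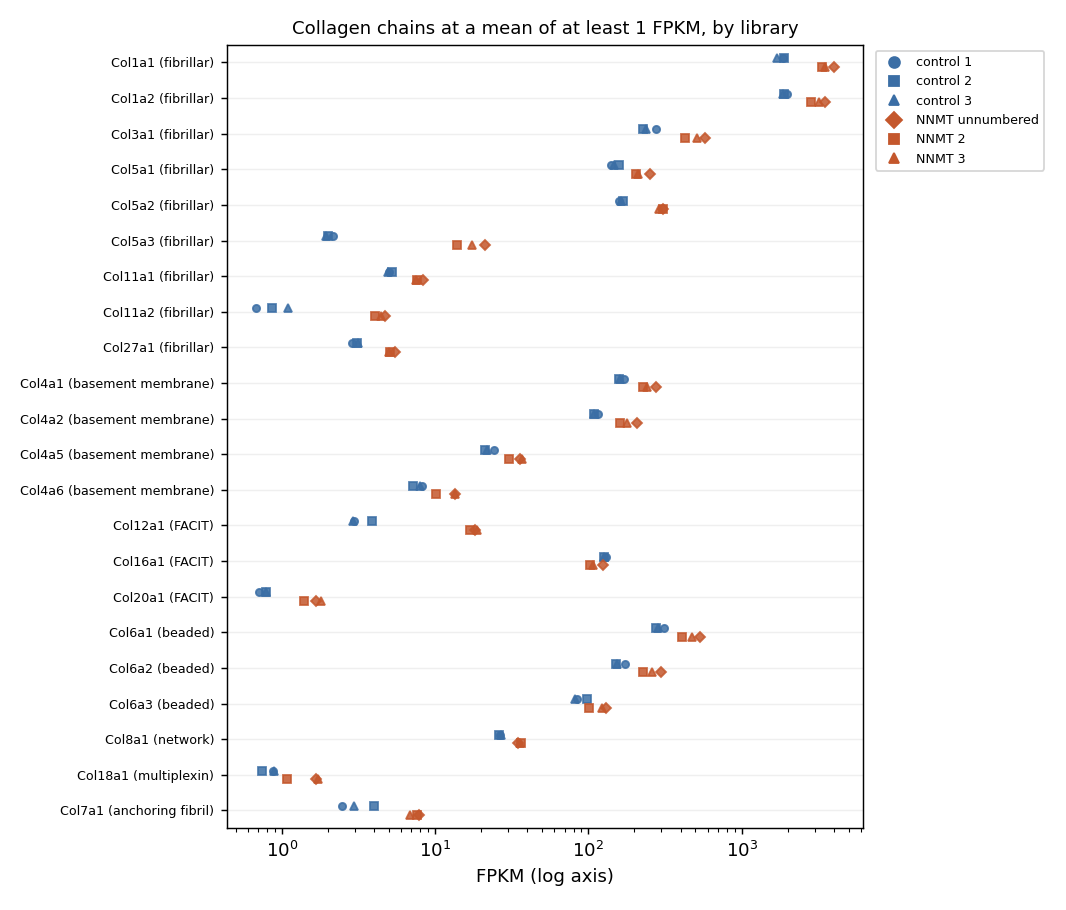
FPKM (log axis) of the 22 tested collagen chains, with 1 point per library, blue for control and orange for NNMT, and the class in brackets. The NNMT points lie to the right of all control points for 21 chains and to the left for Col16a1.

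**Figure D2:**
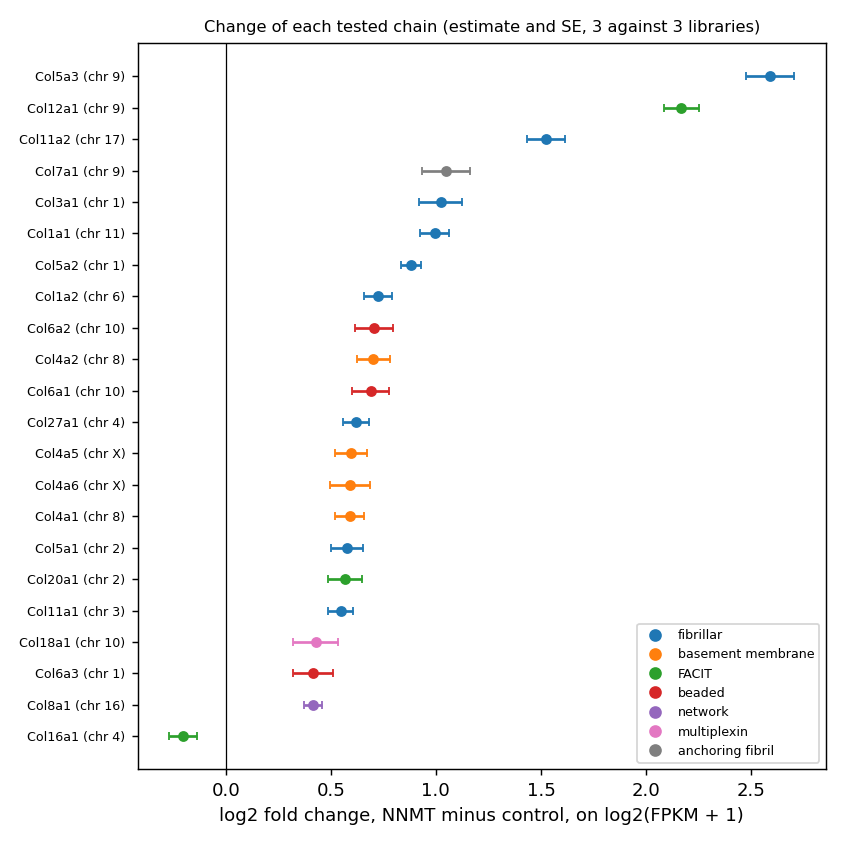
Log2 fold change of each tested chain (NNMT minus control, with SE), coloured by class and labelled with its chromosome. Values run from -0.20 for Col16a1 to 2.59 for Col5a3.

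Type I collagen, the main fibre of skin, bone and tendon, was among the most abundant messages of these cells. Its trimer joins a pair of α1 chains, from Col1a1, with a single α2 chain, from Col1a2. Col1a1 (ENSMUSG00000001506, chromosome 11, 94936224 to 94953042 in GRCm38, plus strand) was at 1852, 1885 and 1709 FPKM in the control libraries and at 4028, 3341 and 3504 in the NNMT libraries. Every NNMT library was far above the control range, and the means, 1815 ± 93.2 and 3624 ± 359, differed 2.00-fold (log2 fold change 0.99, SE 0.0692, limma adjusted p = 9.45e-07). By mean level Col1a1 ranked 18th among the annotated genes in control cells and 3rd in NNMT cells. Col1a2 (ENSMUSG00000029661, chromosome 6, 4504814 to 4541544, plus strand) was at 1987, 1892 and 1862 FPKM, then at 3498, 2848 and 3178. Its groups did not overlap either, with a smaller difference of 1.66-fold (log2 fold change 0.73, SE 0.0684, adjusted p = 7.62e-06). In control cells Col1a1 stood a little under Col1a2 and in NNMT cells a little over it, at ratios of 0.949 ± 0.0416 and 1.14 ± 0.0360. The ratio was higher in each NNMT library (1.10 to 1.17) than in any control library (0.918 to 0.996). For that ratio p was 0.1 by two-sided exact permutation, the smallest that 3 against 3 allows, or 0.157 adjusted over the 11 ratios computed.

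Type III collagen, a trimer of Col3a1 chains alone, shares fibres with type I in soft tissue. Col3a1 (chromosome 1, 45311538 to 45349706) was at 277, 227 and 237 FPKM in control cells and at 573, 429 and 513 in NNMT cells. The groups were apart by 2.05-fold (log2 fold change 1.024, SE 0.102, limma adjusted p = 1.11e-05). Relative to Col1a1 its level was 0.136 ± 0.0149 in control and 0.139 ± 0.00946 in NNMT cells, with overlapping groups (exact permutation p = 0.7). Col5a2, its neighbour on chromosome 1, lies 24614 bases away on the other strand and rose 1.85-fold, from 163 ± 5.21 to 302 ± 12.1 FPKM (log2 fold change 0.88, adjusted p = 1.80e-07).

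Type V collagen, a minor partner of type I that starts fibres and limits their width, rose in all its chains by unequal amounts. Its chains come from Col5a1, Col5a2 and Col5a3, and the form with the α3 chain is the rarer one. Col5a3 (ENSMUSG00000004098, chromosome 9, 20770050 to 20815067, minus strand) had the largest rise of all tested chains. It was at 2.15, 1.99 and 1.95 FPKM in the control libraries, then at 21.1, 13.98 and 17.4. The NNMT libraries were spread more widely than the control libraries, and every one was far above them. The means differed 8.61-fold, from 2.03 ± 0.103 to 17.5 ± 3.56 FPKM, on 1299 and 12049 reads (log2 fold change 2.59, SE 0.115, limma adjusted p = 4.48e-08). On chromosome 9 only 1 of 603 tested genes had a larger log2 fold change. Col5a1 was at 140, 159 and 147 FPKM, then at 251.5, 204.5 and 212, a rise from a mean of 148 ± 9.44 to 223 ± 25.2 (log2 fold change 0.58, SE 0.0773, adjusted p = 9.15e-05), and its span overlaps Gm13372 on the other strand. The level of Col5a3 relative to Col5a1 thus went from 0.0137 ± 0.00144 to 0.0780 ± 0.00841, and Col5a1 relative to Col5a2 went from 0.911 ± 0.0296 to 0.739 ± 0.0766. Relative to Col1a1, Col5a1 was at 0.0819 ± 0.00549 in control and 0.0614 ± 0.000924 in NNMT cells. The groups did not overlap in these 3 ratios (exact permutation p = 0.1 each, 0.157 adjusted over the 11).

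The promoter windows of Col1a2 and Col5a3 are shown because, of the fibrillar chains with a window, Col1a2 was the most abundant and Col5a3 had the largest change. They are RefSeq sequences on GRCm38.p6 from 250 bases before to 50 bases after the gene start, 5′ to 3′ on the gene's strand. The start is that of RefSeq, which for Col1a2 lies downstream of the GENCODE start given above. Col1a2 lies at chr6:4505368-4505667 (plus strand) and Col5a3 at chr9:20815018-20815317 (minus strand). Capitals mark the CCAAT box (CCAAT or, on the other strand, ATTGG), read by the factor NF-Y, and the GC box (GGGCGG or CCGCCC), read by SP1 and its relatives.
Col1a2: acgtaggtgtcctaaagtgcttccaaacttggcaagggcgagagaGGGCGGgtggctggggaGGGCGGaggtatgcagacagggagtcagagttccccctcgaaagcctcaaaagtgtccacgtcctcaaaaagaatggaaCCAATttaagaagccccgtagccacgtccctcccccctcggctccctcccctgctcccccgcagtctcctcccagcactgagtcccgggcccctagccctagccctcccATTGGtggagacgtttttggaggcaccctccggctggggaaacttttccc
Col5a3: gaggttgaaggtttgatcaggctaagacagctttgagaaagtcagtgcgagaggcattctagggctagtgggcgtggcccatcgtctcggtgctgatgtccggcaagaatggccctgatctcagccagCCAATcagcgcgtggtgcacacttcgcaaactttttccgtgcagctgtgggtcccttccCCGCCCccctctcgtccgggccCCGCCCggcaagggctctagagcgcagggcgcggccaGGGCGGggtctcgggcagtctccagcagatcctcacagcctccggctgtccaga
Both windows hold CCAAT and GC boxes. Of the 35 chains with a window in the table, 13 held a CCAAT box and 22 a GC box in at least 1 window, while 37.4% and 35.7% of all 32851 windows did. A TATA box (TATAAA or TTTATA) was found for 5 chains and in 13.6% of all windows. A match is only a match of letters. Of the tested chains, Col1a1, Col5a2 and Col12a1 had no entry.

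Most of the remaining fibrillar chains are better known from cartilage, where types II and XI make thin fibres. Col11a2 (chromosome 17) was at 0.675, 0.866 and 1.09 FPKM in the control libraries, then at 4.71, 4.05 and 4.41. This 5.004-fold difference (log2 fold change 1.53, SE 0.0903, limma adjusted p = 3.12e-07) compares with 1.56-fold for Col11a1, which went from 5.04 ± 0.155 to 7.84 ± 0.475 FPKM (log2 fold change 0.55, adjusted p = 1.95e-05). Col27a1, a fibrillar chain of chromosome 4, rose 1.71-fold from 3.03 ± 0.141 to 5.19 ± 0.264 FPKM. Col2a1, the main chain of cartilage, had 42 reads in the control and 85 in the NNMT libraries, 0.0503 to 0.222 FPKM with overlapping groups. Col24a1 had 1 and 2. Among the cartilage markers, Sox9 was at 25.4 ± 1.40 and 27.6 ± 2.36 FPKM, Hapln1 was at 0, and Acan, the defining proteoglycan of cartilage, had 3 and 1 reads. Comp had 14 and 39 reads and Matn3 had 7 and 21, each with all NNMT libraries above all control libraries. The groups of the other cartilage markers overlapped.

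All 4 tested basement membrane chains rose, by 1.51-fold to 1.64-fold. Collagen IV sheets are built mostly from trimers of the Col4a1 and Col4a2 products, with α5 and α6 chains added in smooth muscle and some epithelia and α3, α4 and α5 chains in the kidney filter. Col4a1 (chromosome 8, 11198423 to 11312826, minus strand) was at 171, 159 and 161 FPKM, then at 275, 227 and 241. Its partner Col4a2 (11312805 to 11449287, plus strand) was at 116, 109 and 108 FPKM, then at 208, 161 and 178. Both groups of libraries were apart for each gene, by 1.51-fold for Col4a1 (log2 fold change 0.59, SE 0.0680, limma adjusted p = 3.23e-05) and 1.64-fold for Col4a2 (0.70, SE 0.0803, adjusted p = 3.01e-05). The ratio of Col4a1 to Col4a2 was 1.47 ± 0.0138 in control and 1.36 ± 0.0436 in NNMT cells, with no overlap (exact permutation p = 0.1, adjusted p = 0.157).

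Col4a1 and Col4a2 are transcribed away from each other from a shared start region, and the annotated genes overlap by 22 bases. How the reads of the overlap were assigned is not known. Their windows, at chr8:11312777-11313076 for Col4a1 (minus strand) and chr8:11312555-11312854 for Col4a2 (plus strand), share 78 bases and are shown for that reason, each 5′ to 3′ on its own strand with the same boxes in capitals.
Col4a1: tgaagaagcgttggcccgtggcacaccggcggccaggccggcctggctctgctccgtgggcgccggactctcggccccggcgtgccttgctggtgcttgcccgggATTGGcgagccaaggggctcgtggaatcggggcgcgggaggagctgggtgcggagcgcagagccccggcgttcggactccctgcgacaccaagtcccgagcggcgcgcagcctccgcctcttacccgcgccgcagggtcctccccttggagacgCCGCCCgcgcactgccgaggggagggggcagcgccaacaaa
Col4a2: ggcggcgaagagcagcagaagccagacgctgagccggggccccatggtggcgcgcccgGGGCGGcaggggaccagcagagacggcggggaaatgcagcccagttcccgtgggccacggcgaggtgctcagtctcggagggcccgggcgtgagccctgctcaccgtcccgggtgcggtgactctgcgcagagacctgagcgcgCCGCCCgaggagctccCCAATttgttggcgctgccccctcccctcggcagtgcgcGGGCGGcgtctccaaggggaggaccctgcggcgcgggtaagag
The GC box near the end of each window is the same stretch of DNA read on opposite strands.

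Col4a5 and Col4a6, another pair that points in opposite directions from starts 1309 bases apart, rose and lie on X, where most tested genes fell. Col4a5 (141475385 to 141689234) was at 24.1, 21.1 and 21.9 FPKM, then at 36.0, 30.2 and 36.9. Col4a6 was at 8.24, 7.22 and 7.97 FPKM, then at 13.5, 10.1 and 13.4. No NNMT library fell within the control range for either gene, and the rises were 1.54-fold (log2 fold change 0.60, SE 0.0779, limma adjusted p = 7.73e-05) and 1.58-fold (0.59, SE 0.0968, adjusted p = 0.000357). The median log2 fold change of the 338 tested genes of X was -0.70, with an interquartile range from -0.91 to -0.49, and the 2 collagens were the 5th and 6th highest of them. Of 21 other tested genes within 5 Mb of Col4a5, 19 fell and 1 rose (median -0.75). The ratio of the pair overlapped between groups, at 2.86 ± 0.101 in control and 2.80 ± 0.162 in NNMT cells (exact permutation p = 0.7). Relative to Col4a1, Col4a5 was at 0.136 ± 0.00404 and 0.139 ± 0.0122, again with overlapping groups (exact permutation p = 0.9). These p-values do not show that the ratios are equal. Col4a4, of the kidney network, had 30 reads in control and 11 in NNMT libraries, and Col4a3 had 4 and 0.

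The FACIT class held both the second largest rise and the only fall. Col12a1, a long chain that binds the surface of type I fibres (ENSMUSG00000032332, chromosome 9, 79598991 to 79718831), was at 2.95, 3.84 and 2.92 FPKM in control and at 18.3, 16.8 and 18.8 in NNMT cells. The groups were far apart, and limma gave a rise of 2.17 on the log2 scale (SE 0.0843, adjusted p = 1.96e-08). Relative to Col1a1 its level went from 0.00178 ± 0.000233 to 0.00498 ± 0.000407 (exact permutation p = 0.1, adjusted p = 0.157). Col16a1 (ENSMUSG00000040690, chromosome 4, 130047840 to 130099283, plus strand), found near fibres and microfibrils, was the most abundant FACIT chain in both groups. It was at 130.5, 126.5 and 127.0 FPKM in control cells and at 123.9, 102.7 and 107.5 in NNMT cells. The unnumbered NNMT library lay closest to the control range, and the fall of 1.149-fold (log2 fold change -0.20, SE 0.0655, adjusted p = 0.0189) missed the threshold when control replicate 1 or NNMT replicate 3 was left out (adjusted p = 0.0573 and 0.0725). Of 116 other tested genes within 5 Mb of Col16a1, 90 fell and 8 rose, with a median of -0.34, and the median of all 688 tested genes of chromosome 4 was -0.23. Col16a1 thus ranked 324th of these 688 from the top. What the position has to do with its fall was not tested. Col20a1 rose from 0.764 ± 0.0479 to 1.62 ± 0.215 FPKM (log2 fold change 0.57, adjusted p = 0.000144), and reads where BX649560.1 overlaps it on the same strand could belong to either gene.

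The window of Col16a1, chr4:130047590-130047889 on the plus strand, is shown as that of the only chain that fell. It also holds a CCAAT box and 2 GC boxes, in capitals as before.
Col16a1: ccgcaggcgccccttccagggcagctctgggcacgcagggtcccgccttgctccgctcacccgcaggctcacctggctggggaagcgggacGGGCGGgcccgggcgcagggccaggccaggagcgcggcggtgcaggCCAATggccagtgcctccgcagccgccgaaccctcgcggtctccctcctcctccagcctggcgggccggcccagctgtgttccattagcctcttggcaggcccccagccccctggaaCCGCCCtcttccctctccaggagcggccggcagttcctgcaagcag

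The 3 tested beaded chains rose, Col6a3 by the least. Collagen VI is assembled from 1 chain each of Col6a1, Col6a2 and another kind, usually Col6a3, and its microfibrils surround most mesenchymal cells. Col6a1 (chromosome 10) was at 313, 277 and 283 FPKM, then at 533, 409 and 474. Col6a2, 85161 bases away on the same strand, was at 173, 152 and 153 FPKM, then at 299, 227 and 260. The 2 genes rose by 1.62-fold and 1.64-fold (log2 fold changes 0.69 and 0.70, limma adjusted p = 5.97e-05 and 7.03e-05). Their ratio was 1.83 ± 0.0213 in control and 1.80 ± 0.0227 in NNMT cells (exact permutation p = 0.4). Col6a3 (chromosome 1) was at 84.5, 98.4 and 81.8 FPKM, then at 130, 102 and 123, a 1.34-fold rise (log2 fold change 0.42, SE 0.0935, adjusted p = 0.00271). Control replicate 2 and NNMT replicate 2 were nearly level for this gene. Relative to Col6a1, Col6a3 went from 0.305 ± 0.0449 to 0.251 ± 0.00750, with no overlap (exact permutation p = 0.1, adjusted p = 0.157), and the difference of -0.27 on the log2 scale became -0.16 without control replicate 2. Col6a4, Col6a5 and Col6a6, which can take the place of Col6a3, had 8, 0 and 9 reads in control and 18, 0 and 5 in NNMT libraries. Col28a1 was at 0.260 ± 0.0437 and 0.278 ± 0.0449 FPKM, and Col26a1 was at 0.

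The network, multiplexin and anchoring fibril classes had 1 tested chain each, and none of the 4 transmembrane chains was tested. Col8a1, which forms hexagonal networks in vessel walls and the cornea, was at 26.4, 26.0 and 26.9 FPKM, then at 34.9, 36.1 and 35.7. The libraries of a group lay close together, and the 1.35-fold rise was clear of their spread (log2 fold change 0.42, SE 0.0434, limma adjusted p = 1.56e-05). Col8a1 lies on chromosome 16, where 20 of 23 other tested genes within 5 Mb rose and the median was 0.47, beside its own 0.42. Col7a1, which forms the anchoring fibrils below epithelia, was at 2.45, 3.97 and 2.96 FPKM, then at 7.87, 7.57 and 6.90, a 2.38-fold rise (log2 fold change 1.05, SE 0.114, adjusted p = 2.13e-05). Col18a1, the source of endostatin, went from 0.836 ± 0.0792 to 1.49 ± 0.360 FPKM (log2 fold change 0.43, adjusted p = 0.00499), and its span overlaps Slc19a1 on the other strand.

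Of the 22 chains under 1 FPKM, 4 (Col6a5, Col9a1, Col13a1 and Col26a1) were at 0 in every library, 5 had 1 to 9 reads and 13 had 10 or more. Col22a1, a FACIT chain known from the junction of muscle and tendon, had 12, 7 and 8 reads in the control libraries and 214, 155 and 183 in the NNMT libraries. That is 18.8-fold in FPKM, from 0.0297 ± 0.00984 to 0.559 ± 0.0556, a larger ratio than for any tested chain at a level that stayed low. Col9a3, a FACIT chain of cartilage, had 30, 43 and 31 reads, then 98, 113 and 92, while its partner Col9a1 had 0 reads and Col9a2 had 8, all of them in control replicate 3. Col17a1, a transmembrane chain of epithelial attachment sites, had 104, 129 and 98 reads, then 199, 212 and 167. Without the filter on low levels these 3 passed (limma adjusted p = 0.000134, 0.00116 and 0.0109), as did Col14a1 and Col15a1, which had 5 and 8 reads in control and 35 and 32 in NNMT libraries. Of 20528 genes tested without the filter 21.4% rose. Col10a1, of growth plate cartilage, had 83 and 58 reads with overlapping groups, and Col8a2 had 11 and 23. Col23a1, Col25a1 and Col19a1 had 3, 1 and 0 reads in control and 2, 9 and 2 in NNMT libraries.

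**Figure D3:**
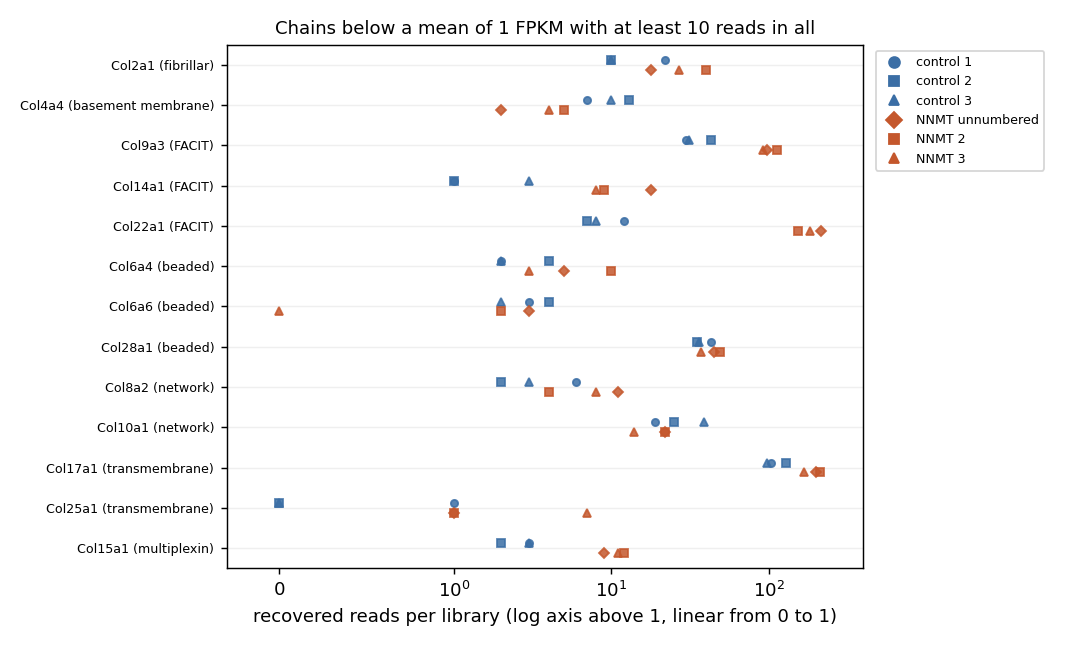
Recovered reads per library (log axis above 1) for the 13 chains under a mean of 1 FPKM that had at least 10 reads over the 6 libraries, blue for control and orange for NNMT. Col22a1, Col9a3, Col17a1, Col14a1 and Col15a1 have all NNMT points to the right of all control points, and Col4a4 has them to the left.

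Summed in FPKM over their members, most classes were higher in NNMT cells and the FACIT class was level. These sums are a description with no test. The fibrillar chains summed to 4299 ± 152 FPKM in control and 7863 ± 777 in NNMT cells (1.83-fold), the beaded chains to 539 ± 28.2 and 852 ± 113 (1.58-fold), and the basement membrane chains to 305 ± 12.8 and 476.5 ± 52.1 (1.56-fold). FACIT chains summed to 132 ± 1.82 and 132 ± 11.7 FPKM, and of its chains Col12a1 rose while Col16a1 fell. As a share of counted reads, where long chains weigh more, FACIT chains took 0.0708% ± 0.000895 in control and 0.0801% ± 0.00653 in NNMT cells. The fibrillar share of all collagen FPKM went from 81.0% ± 0.404 to 83.9% ± 0.312 and the FACIT share from 2.496% ± 0.0615 to 1.42% ± 0.0233. All 44 chains together took 3.05% ± 0.104 of the counted reads in control and 5.40% ± 0.543 in NNMT cells. Of the 3 NNMT libraries the unnumbered one was the highest for 16 of the 22 tested chains and NNMT replicate 2 the lowest for 17.

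**Figure D4:**
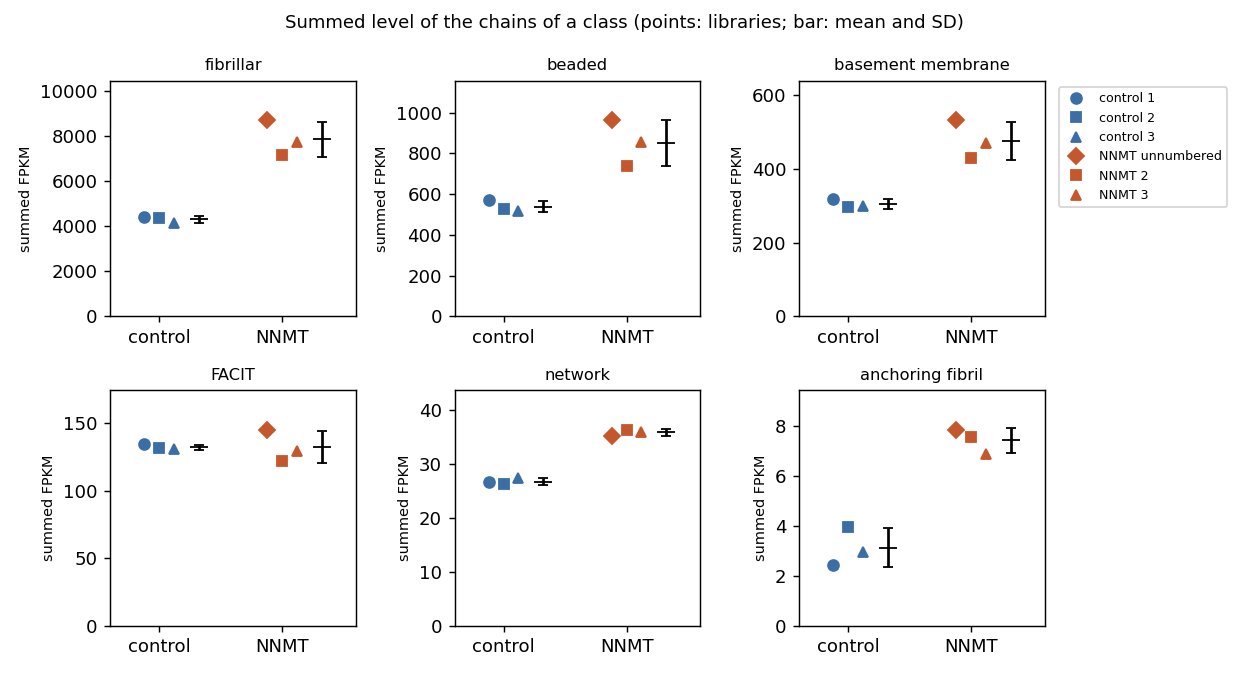
Summed FPKM of the fibrillar, beaded, basement membrane, FACIT, network and anchoring fibril chains in each library, with mean and SD beside the points. Each axis starts at 0, and the transmembrane and multiplexin classes are not drawn. The fibrillar sums are 4130 to 4424 in control and 7162 to 8699 in NNMT libraries, while the FACIT sums overlap.

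Of the 11 ratios between chains, 7 had groups that did not overlap and 4 did overlap. Groups also stood apart for 69.9% of all single genes tested, and the share for ratios of other gene pairs was not computed. The smallest adjusted p of a ratio was 0.157 by exact permutation, so that lack of overlap by itself sets no pair apart. A twelfth pair, Col8a1 and Col8a2, was left out because Col8a2 was under 1 FPKM. Ratios within a library do not depend on its scaling. Of the neighbouring pairs among the 11, Col6a1 with Col6a2 and Col4a5 with Col4a6 overlapped, and Col4a1 with Col4a2, the closest neighbours, did not. The ratio of the neighbours Col3a1 and Col5a2 was not computed.

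**Figure D5:**
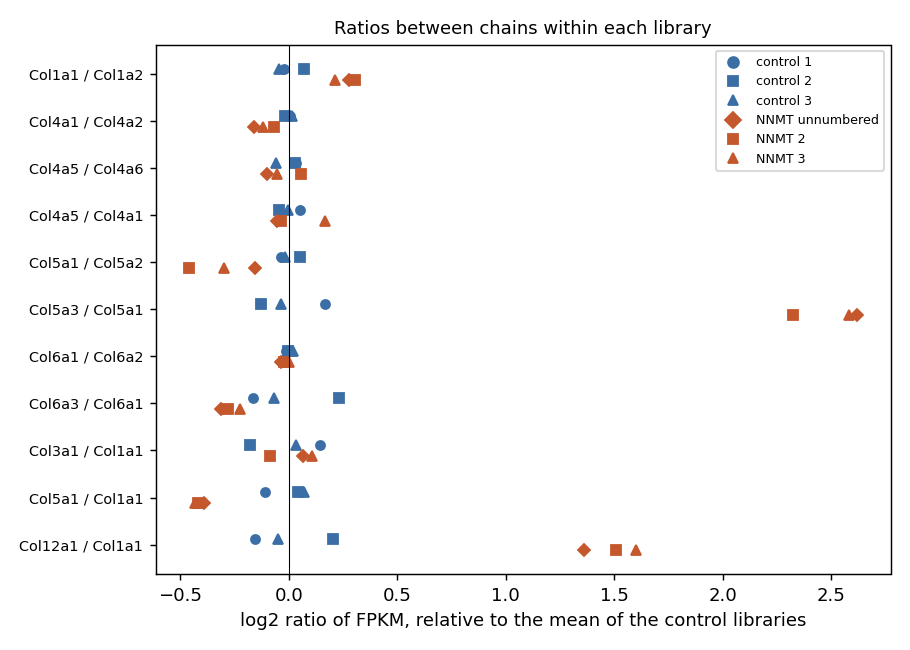
Ratio of FPKM between 2 chains in each library, on a log2 scale relative to the mean of the control libraries. The ratios Col5a3 to Col5a1 and Col12a1 to Col1a1 are shifted by 2.51 and 1.49, and the other ratios by -0.41 to 0.27.

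The classes differ in how their coding sequences hold the glycine repeat. In GENCODE M21 the longest coding sequence of Col1a1 has 338 triplets that open with a glycine codon, one after another without a break, and 9 of the 11 fibrillar chains have such a run of 337 to 344 triplets. Col27a1 and Col24a1 have shorter ones of 217 and 216. The collagen IV chains have 39 to 66 triplets in their longest run and 22 to 27 runs of at least 5 triplets. Col12a1, at 3065 codons, holds 84 triplets in such runs, and Col16a1, at 1580 codons, holds 333 in 21 runs, so that the 2 main FACIT chains are unlike in build. Col5a3, with a longest run of 337, is like the other type V chains in this respect.

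Genes that modify, fold and secrete collagen are read against the 35.0% of all tested genes that rose and the 30.6% that fell. Of 14 tested genes for hydroxylation and glycosylation of collagen 12 rose, with a median log2 fold change of 0.41. Examples are P3h2, a prolyl 3-hydroxylase (log2 fold change 2.25, from 0.0746 ± 0.0230 to 4.12 ± 0.236 FPKM), and P4ha3 and P4ha2, catalytic subunits of prolyl 4-hydroxylase (1.249 and 0.88). P3h2 was tested only because of its level in NNMT cells, so that a rise was the only call it could get. Of 19 tested genes for folding and secretion 13 rose and Sec23a, a coat protein of transport vesicles, fell (median 0.26). Serpinh1, the collagen chaperone HSP47, went from 546.5 ± 15.6 to 998 ± 20.4 FPKM, the collagen-binding protein Sparc from 749 ± 22.5 to 1404 ± 24.3, and the channel Tmem38b from 3.03 ± 0.157 to 4.87 ± 0.262. Among 8 tested genes for processing and cross-linking 5 rose and Loxl3 fell (median 0.34). Tll1, a proteinase of the same list, averaged less than 1 FPKM and was not tested, at 1.21 ± 0.504 FPKM (639 reads) in control and 0.0114 ± 0.0152 (6 reads) in NNMT cells, with no overlap. The cross-linking enzyme Lox rose (log2 fold change 1.04), as did Pcolce, which speeds removal of the C-terminal propeptide (0.90, to 266 ± 5.56 FPKM), and the N-proteinase Adamts14 (0.63). The median of all genes tested was 0.028, and no test of these lists was run.

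Partners of collagen in the matrix, its receptors and its proteases are read against the same shares of all tested genes, 35.0% higher and 30.6% lower. Of 14 tested fibril and network partners 8 rose and 3 fell, and the largest changes were the rises of Dpt (dermatopontin), Fbln1 and Fmod, which were at 0.138 ± 0.0505, 0.112 ± 0.0334 and 0.414 ± 0.0606 FPKM in control and at 7.09 ± 1.58, 4.05 ± 0.651 and 4.84 ± 0.970 in NNMT cells. All 3 were tested only because of their level in NNMT cells, as were Lama5 (0.0901 ± 0.0135 FPKM in control and 2.48 ± 0.590 in NNMT cells) and Mmp16 (0.762 ± 0.0714 and 6.49 ± 0.280) among the genes below. The fibril and network partners that fell were Bgn (1229 ± 32.2 to 745 ± 37.9 FPKM, log2 fold change -0.72), Lum (-0.52) and Thbs2 (-0.29). Summed over the 16 listed partners, FPKM overlapped between groups, at 3250 to 3460 in control and 3370 to 3660 in NNMT libraries. Of 12 tested basement membrane partners 8 rose and the other 4 did not pass (median 0.62). The laminin chains Lama5 and Lamb2 and the linker Nid2 rose by 1.66, 0.96 and 1.38 on the log2 scale. Of 7 tested collagen receptors 3 rose and 3 fell, shares near those of all genes. The integrin subunit Itga11 and the receptor kinase Ddr1 rose (log2 fold changes 0.93 and 0.61) and the proteoglycan Cspg4 fell (-0.34). The integrin subunit Itgb1 (-0.34, from 223 ± 9.80 to 176 ± 6.13 FPKM) and the receptor kinase Ddr2 (-0.12) fell as well, and Mrc2 rose (0.34). Of 7 tested proteases that act on collagen 4 rose and Ctsb fell, again with no test of the list. Mmp9, Ctsk and Mmp16 had the largest changes (log2 fold changes 2.88, 2.25 and 2.09).

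Markers of other cell types were given by their summed FPKM. Epithelial markers, with Epcam, Krt18 and Cldn4 at 0, summed to 0.527 to 1.18 in control and 0.284 to 0.383 in NNMT libraries. Endothelial markers, with Tie1, Emcn and Cldn5 at 0, summed to 0.145 to 0.247 and 0.118 to 0.142. Adipocyte markers, with Adipoq, Cidec and Cebpa at 0, summed to 0.132 to 0.701 and 0.637 to 1.12. Immune markers, with Cd3e at 0, summed to 2.48 to 2.88 and 1.21 to 2.08. The 8 osteoblast markers summed to 523 to 624 and 726 to 830, nearly all of it Spp1 (572 ± 52.6 and 754 ± 55.9 FPKM). Both that were tested, Spp1 and Runx2, rose. Of those under 1 FPKM, Phex had 236 reads in control and 111 in NNMT libraries, with all NNMT libraries below. Sp7 had 1 and 35, with all NNMT libraries above. Bglap had 7 and 2 reads and Alpl had 0 and 3. The smooth muscle and pericyte markers summed to 889 to 931 FPKM in control and 1150 to 1180 in NNMT libraries. Of these Acta2 rose (705 ± 11.1 to 1004 ± 10.3 FPKM) and Tagln, Cspg4 and Mcam fell. Myh11, the defining myosin of smooth muscle, was at 0.0313 ± 0.0172 and 0.0368 ± 0.0125 FPKM. Cnn1, Des and Rgs5 were under a mean of 1 FPKM and not tested. They had 96, 72 and 15 reads in control and 155, 214 and 64 in NNMT libraries. For each of them all NNMT libraries lay above all control libraries. The chondrocyte markers summed to 25.2 to 28.3 FPKM in control and 27.1 to 31.7 in NNMT libraries, nearly all of it Sox9, which did not pass. The part of these markers in the collagen values was not tested.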

How the data were processed

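The authors deposited 1 table, with a value for each gene and library and no unit named. Per the submitters' processing notes, CASAVA, STAR 2.5 and mm10 were used; the counter, annotation release and strandedness were not stated. The deposited values were read as FPKM: each gene's values step by what 1 read is worth, and that step matched the longest GENCODE M21 transcript for 71.1% of the 20528 genes above 0. Values of all of these were turned into whole reads (tolerance 0.01 of a read). For 4812 genes, Col1a2, Col18a1, Col20a1 and Col6a4 among them, no transcript length fitted and the length was found by search. That length was the shortest at which all values came out whole, so the read counts of these genes could be too low. Coordinates are from GENCODE M21 (GRCm38, which mm10 also names).

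Where the mean over 6 libraries reached 1 FPKM, genes were tested with limma 3.58.1 (R 4.3.3) on log2(FPKM + 1), two-sided, with trend and robust moderation and Benjamini-Hochberg adjustment over 10882 genes at 0.05. Folds are ratios of mean FPKM where each group had at least 10 reads. The fit was also tested on simulated data. Named genes were Nnmt, all collagen chains, and from each pathway list up to 3 called genes with the largest change. Sec23a, Loxl3, Tll1, Ctsb, Bgn, Lum, Thbs2, Itgb1, Ddr2, Mrc2 and single marker genes were named after their values were seen. The members and lists were chosen with earlier results of these data known. Recovered reads differed between any 2 libraries of a group beyond sampling noise (chi-square per degree of freedom 6.35 to 23.9), so each counted as a library of its own. Alternatives were other scalings, filters, pseudocounts and moderation, limma-voom on recovered reads, leaving out each library, and a block on replicates 2 and 3.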

Additional observations from a re-analysis of the deposited data

How the results depend on the processing

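The count of 21 chains called higher was the same under other scalings, pseudocounts, moderation, limma-voom on recovered reads and each omission of a library. It was 17 of 18 tested at a mean of at least 5 FPKM and 26 of 40 with no filter, and 5 where a log2 change of 1 or more in size was required. The count called lower, 1 (Col16a1), ranged from 0 to 1 when a library was left out, and was 0 by limma under quantile normalization (0 at an unadjusted p under 0.05, log2 fold change -0.14, adjusted p = 0.123), with no filter (1 at an unadjusted p under 0.05), at an adjusted p under 0.01 and at the fold limit. By limma-voom it was 1. The cause was not tested. Of 414 values for the 22 single chains under 19 alternatives, which leave out the fold limit, 409 kept direction and side of the threshold and the other 5 were those of Col16a1. Of the 4 overlapping ratios 3 changed sign and Col6a1 to Col6a2 did not: Col4a5 to Col4a6 (-0.03 on the log2 scale) was 0.00439 with a pseudocount of 1 and ranged from -0.0796 to 0.00113 over omitted libraries, Col4a5 to Col4a1 ranged from -0.0462 to 0.0655, and Col3a1 to Col1a1 from -0.0539 to 0.104. Under quantile normalization 2 genes of the folding and secretion list and 1 immune marker were lower, and 1 osteoblast marker was higher. The replicate block could be fitted only on replicates 2 and 3, whose deviations correlated at 0.212 and 0.110 between groups. Libraries of unlike number correlated as much in control 3 with NNMT 2 (0.212) and control 1 with NNMT 3 (0.111). Other such pairs were negative, as control 1 with NNMT 2 (-0.381). The highest correlation of any pair was that of control 1 with the unnumbered NNMT library (0.314). Whether libraries of the 2 groups were paired is therefore not settled by these values. The block gave 21 higher and 1 lower, as did the same 4 libraries with no replicate block, a setting added after the data were seen. Chains with under 10 reads cannot be compared at this depth.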
